A study of Rattus norvegicus with 10 samples.

Results

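The collagen genes were taken as every mRNA probe of a rat lncRNA and mRNA array whose RefSeq symbol is Col, a type number, the letter a and a chain number. The rule found 15 genes among the 14274 named mRNA probes, out of 44 collagen symbols in the RefSeq annotation of the rat genome. They comprise 6 fibrillar chains (Col1a2, Col2a1, Col3a1, Col5a1, Col5a3 and Col11a2), 2 type IV chains of basement membranes (Col4a1 and Col4a4) and 7 other chains (Col7a1, Col8a1, Col9a2, Col9a3, Col13a1, Col14a1 and Col23a1). No probe was matched to the remaining 29 symbols, which include Col1a1, Col4a2, the main type VI chains, Col18a1 and Col25a1, and these were not analysed here. Each of the 15 genes had 1 probe on 1 spot.

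Total RNA was from the lumbar enlargement of the spinal cord of male Sprague Dawley rats of 240 to 260 g, with 1 one-colour array per rat. The 5 rats of the morphine tolerance (MT) group, numbered 1 to 5, were injected intrathecally with 10 μg of morphine in 10 μl, 2 times a day for 7 days. The 5 rats of the normal saline (NS) group, numbered 6 to 10, received 10 μl of saline on the same schedule. Both groups received a further morning injection on the following day, before the tissue was taken. The comparison asks which collagen RNAs differ in level between the cords of morphine-tolerant and saline rats. In such bulk tissue, fewer cells of a type and less RNA per cell cannot be told apart.

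Collagens are triple helices of 3 chains that build much of the extracellular matrix. In the spinal cord, fibrillar collagens lie chiefly in the meninges and around larger vessels, where fibroblasts make them, while type IV networks line the vessels and the pial surface. The remaining families coat fibrils, form short-chain networks in vessel walls, anchor epithelia or span the cell membrane.

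Arrays with an identical scan time are called a slide here. Slide 1 held MT rats 1, 3, 4 and 5, slide 2 held MT rat 2 with NS rats 6, 7 and 10, and slide 3 held NS rats 8 and 9. The share of spots well above background was 81.1% to 83.9% in MT rats, 77.4% to 79.6% in the NS rats of slide 2, and 58.6% and 63.8% in those of slide 3. Levels below are quantile-normalized log2 intensities, and the small number of arrays limits how precise any of them is. All 15 genes passed the filter (well above background on at least 5 arrays). They were well above background on all 10 arrays except Col5a1 (3 of 5 NS arrays) and Col4a4 (4 of 5 NS arrays).

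Promoter sequences were available from RefSeq (build GRCr8) for 11 of the 15 genes. The 250 bases before the transcript start that the promoter table uses, written 5′ to 3′ on the gene's strand, are shown for 5 genes whose values are described in most detail below. These are the interstitial fibril chain Col1a2 (chr4:33518307-33518556, plus strand), the vessel-wall chain Col8a1 (chr11:56246532-56246781, plus strand), the basement membrane chain Col4a1 (chr16:84885347-84885596, plus strand), the fibril-regulating chain Col5a3 (chr8:27625949-27626198, minus strand) and the membrane-spanning chain Col23a1 (chr10:36050077-36050326, plus strand). For Col8a1 and Col5a3 this start is not the outermost one, so that the Col8a1 window lies inside the annotated gene and the Col5a3 window overlaps its first bases. Capitals mark matches to 3 core promoter motifs, searched on both strands, none of which overlap here. The TATA box was searched as TATAAA, which reads as TTTATA where the match is on the other strand. The CCAAT box was searched by these letters, and it reads as ATTGG when found on the other strand. The GC box was searched with the letters GGGCGG, and a match on the other strand is printed as CCGCCC.
Col1a2: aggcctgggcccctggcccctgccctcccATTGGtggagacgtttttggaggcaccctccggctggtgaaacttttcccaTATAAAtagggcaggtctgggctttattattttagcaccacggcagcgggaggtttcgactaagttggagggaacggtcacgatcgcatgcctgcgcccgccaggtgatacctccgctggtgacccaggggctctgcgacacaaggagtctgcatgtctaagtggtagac
Col8a1: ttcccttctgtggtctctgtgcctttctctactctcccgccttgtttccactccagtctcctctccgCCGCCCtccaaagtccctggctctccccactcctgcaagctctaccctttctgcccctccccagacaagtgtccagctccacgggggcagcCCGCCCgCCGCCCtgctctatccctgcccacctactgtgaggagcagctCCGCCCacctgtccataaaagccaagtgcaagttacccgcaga
Col4a1: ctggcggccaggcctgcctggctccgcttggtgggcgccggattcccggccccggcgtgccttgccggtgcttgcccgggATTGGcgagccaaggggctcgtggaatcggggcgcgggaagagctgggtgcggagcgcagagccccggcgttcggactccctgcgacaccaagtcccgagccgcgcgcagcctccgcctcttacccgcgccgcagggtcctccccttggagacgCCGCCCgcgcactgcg
Col5a3: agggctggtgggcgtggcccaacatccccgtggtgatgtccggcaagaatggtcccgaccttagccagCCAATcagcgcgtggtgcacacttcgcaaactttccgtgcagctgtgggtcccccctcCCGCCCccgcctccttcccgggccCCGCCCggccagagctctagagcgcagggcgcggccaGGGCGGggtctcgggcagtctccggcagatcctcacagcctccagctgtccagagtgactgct
Col23a1: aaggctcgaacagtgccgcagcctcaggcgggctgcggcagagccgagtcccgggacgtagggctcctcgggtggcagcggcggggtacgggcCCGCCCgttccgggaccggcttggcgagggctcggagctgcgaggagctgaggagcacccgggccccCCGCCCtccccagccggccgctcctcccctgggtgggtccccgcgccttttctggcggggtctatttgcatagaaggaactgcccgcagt

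Of these 5 promoters, TATAAA was present in Col1a2 alone, 170 bases before this start, together with 1 CCAAT match. In the Col8a1 promoter there were 4 GGGCGG matches, and in the Col23a1 promoter 2. The Col5a3 and Col4a1 promoters held both CCAAT and GGGCGG. Over all 11 collagen promoters, TATAAA was found in 2, CCAAT in 3 and GGGCGG in 7. Among 33469 rat promoter windows of the same length, the shares were 12.9% for TATAAA, 34.0% for CCAAT and 30.5% for GGGCGG. Col4a1 and its partner Col4a2 start head to head 76 bases apart on chromosome 16, and Col4a4 and Col4a3 start 412 bases apart on chromosome 9. These matches describe the letters of the window and were not related to the array values by any test.

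The collagen genes did not move as one group. Relative to the NS group, the mean level in the MT group was higher for 5 of the 15 genes and lower for 10, with a median log2 fold change of −0.08. The median over all 20261 RNAs tested was −0.0013, with 50.2% of them lower. The medians of the fibrillar, type IV and other chains were −0.07, −0.05 and −0.08. The largest differences were the higher means of Col3a1 (1.83-fold) and Col8a1 (1.75-fold) and the lower mean of Col23a1 (1.43-fold).

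In limma's moderated test, 0 of the 15 genes passed an adjusted p of 0.05, which 0.197% of all RNAs did. At an unadjusted P below 0.05 there were 6 collagen genes, with 16.4% of all RNAs past it. Col4a1 and Col8a1 were the 2 with the higher mean in the MT group (6.85% of all RNAs), and Col2a1, Col5a3, Col9a3 and Col23a1 the 4 with the lower mean (9.55%). The methods' t-test also gave 0 genes after Benjamini-Hochberg adjustment and 6 before it. By the study's criteria, read as a difference of more than 1.5-fold on the linear scale at P below 0.05 before adjustment, 1 gene was higher in the MT group, Col8a1 (1.74% of all RNAs), and 0 were lower (0.997%). The groups did not overlap for 2 genes, Col2a1 and Col9a3, both lower in the MT group (3.3% of all RNAs). No collagen gene was without overlap and higher in the MT group (2.31% of all RNAs).

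**Figure D1:**
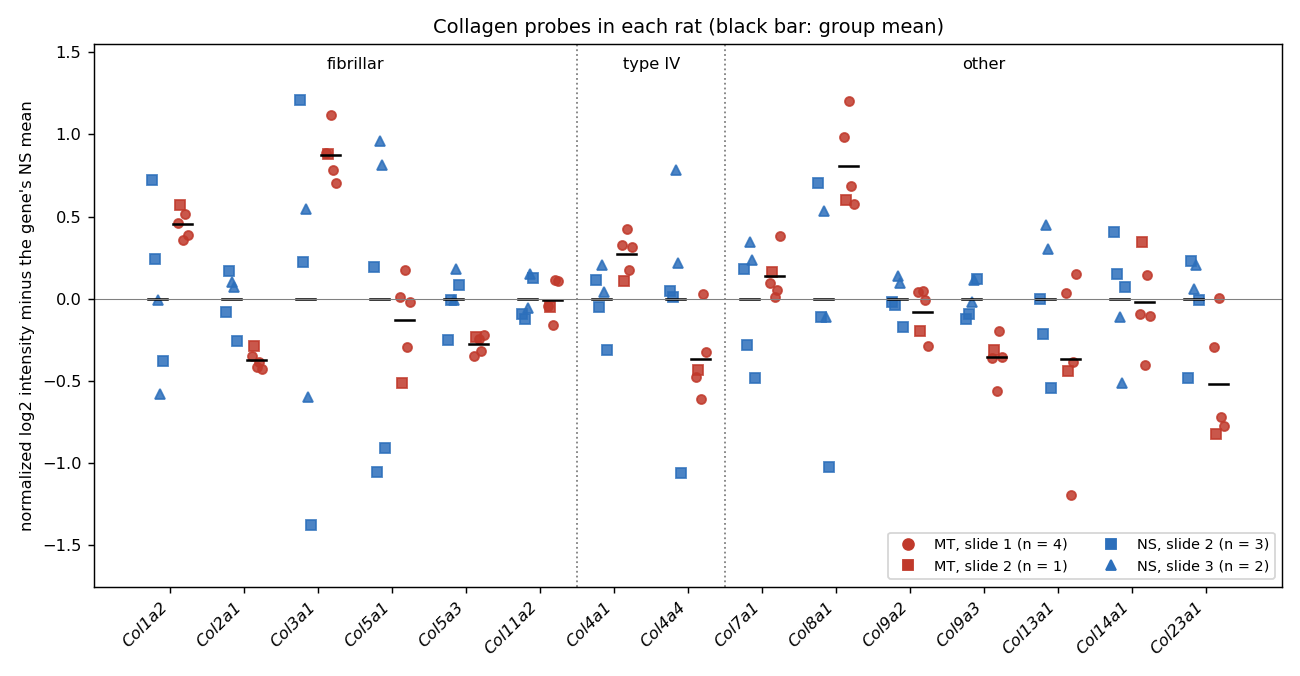
Level of each collagen probe in each of the 10 rats, as normalized log2 intensity minus the mean of the 5 NS rats for that gene (y axis), with MT in red, NS in blue, the slide as the marker shape and the group mean as a black bar. The MT points of Col1a2 and Col3a1 lie close together while the NS points spread from above to well below them, and all 5 MT points of Col2a1 and Col9a3 lie below the 5 NS points.

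Col1a2 and Col3a1 encode chains of the abundant interstitial fibrils of types I and III. The Col3a1 level was 11.62, 11.61, 11.85, 11.51 and 11.43 in MT rats 1 to 5 and 11.94, 10.95, 11.27, 10.13 and 9.35 in NS rats 6 to 10. The MT rats thus lay close together, 1 NS rat lay above all of them, and the other 4 NS rats lay below all of them. The log2 fold change was 0.88 (SE 0.41, limma adjusted p = 0.325), and a two-sided exact permutation test gave p = 0.0873, where 0.00794 is the smallest value that 5 against 5 rats allow. Col1a2 had a similar layout. Its level was 11.73, 11.84, 11.63, 11.79 and 11.66 in the MT rats and 11.99, 11.52, 11.26, 10.70 and 10.90 in NS rats 6 to 10. NS rat 6 was again the highest of all 10 rats and the 4 other NS rats were below every MT rat. Its log2 fold change was 0.46 (SE 0.21, adjusted p = 0.323, exact permutation p = 0.103). Leaving out single rats moved these differences, with Col3a1 at 1.18 and Col1a2 at 0.64 without NS rat 6 and Col3a1 at 0.53 without NS rat 10. Col1a2 was at 0.36 without NS rat 10 and at 0.31 without NS rat 9. Without the arrays of slide 3, Col1a2 fell to 0.26 while Col3a1 was at 0.86. Without NS rat 6, both genes met the study's criteria.

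The spread of these fibrillar genes among NS rats was wide. For Col3a1 the SD was 1.01 over the 5 NS rats and 0.156 over the 5 MT rats, and for Col1a2 it was 0.513 and 0.0870. Over the 15 genes, the SD was larger in the NS group for 11, as it was for 64.3% of 20196 RNAs with a value on every array. It was more than 3 times as large for 4 genes (Col1a2, Col2a1, Col3a1 and Col5a1), against 16.9% of all RNAs. The NS arrays came from 2 slides, as did the MT arrays. On slide 2 alone, the 3 NS rats had an SD of 1.30 for Col3a1, 0.550 for Col1a2 and 0.865 for Col8a1, whereas the 4 MT rats of slide 1 had an SD of 0.181, 0.0696 and 0.287. The wide NS spread of these 3 genes was therefore present without the arrays of slide 3. This feature was chosen after the values were seen and is given as a description.

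**Figure D2:**
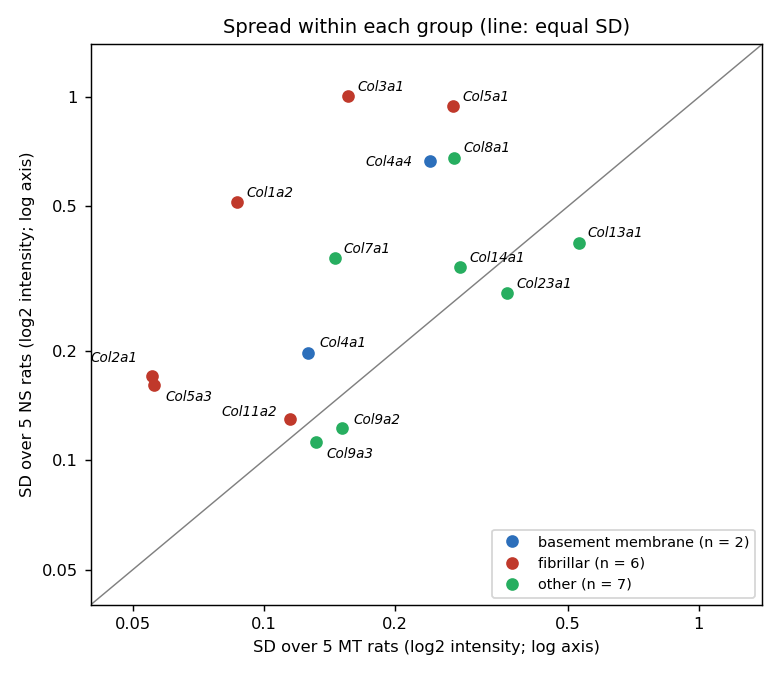
SD of each collagen gene over the 5 MT rats (x axis) and over the 5 NS rats (y axis) in log2 intensity on log axes, with colours for the 3 classes and a line of equal SD. Of the 15 points, 11 lie above the line, with Col1a2 and Col3a1 farthest from it.

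Averaged over the 15 genes, NS rat 10 was the lowest and NS rat 8 the highest of the NS rats. NS rat 10 had the lowest level of the 5 NS rats for 8 of the 15 genes, as it did for 22.5% of all RNAs. NS rat 6 had the highest level of the 5 NS rats for 4 genes, against 13.6% of all RNAs. The mean deviation from each gene's level over all rats was 0.17 in NS rat 6, −0.07 in NS rat 7, 0.26 in NS rat 8, 0.04 in NS rat 9 and −0.41 in NS rat 10. In the MT rats it lay between −0.04 and 0.06.

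Some markers of meningeal fibroblasts were also highest in NS rat 6 and lowest in NS rat 10 among the NS rats, namely Dcn, Lum, Slc6a13 and Crabp2, while others were not. Decorin (Dcn), a small proteoglycan that binds collagen fibrils, was between 10.56 and 10.97 in the MT rats and at 11.42, 10.63, 10.75, 9.85 and 9.06 in NS rats 6 to 10. Lumican (Lum), a related fibril-binding proteoglycan, was between 6.32 and 6.78 in the MT rats and at 7.26, 6.34, 6.85, 6.08 and 5.17 in NS rats 6 to 10. From highest to lowest, the NS rats ranked 6, 8, 7, 9 and 10 for Dcn, Lum and Crabp2, and in that order also for Col3a1. Col8a1 had the same order except that rats 7 and 9 were level at 7.78. Col1a2 did not share it, with NS rat 7 above rat 8 and NS rat 10 above rat 9. The other markers also differed from the order of Dcn. NS rat 10 was the highest NS rat for Slc22a6, Pdgfra and Ogn, NS rat 6 was the lowest for Aldh1a2 and Ogn, and NS rat 8 was the highest for Igf2. Of the 12 listed meningeal fibroblast markers, 9 were tested, all well above background on every array, with 7 higher in MT rats and 2 lower, 0 past an unadjusted P of 0.05 and a median log2 fold change of 0.17. The mean level of these 9 markers ran from 8.97 to 9.21 in the MT rats and from 8.65 (rat 10) to 9.28 (rat 6) in the NS rats. Their part in the collagen values was not tested.

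**Figure D3:**
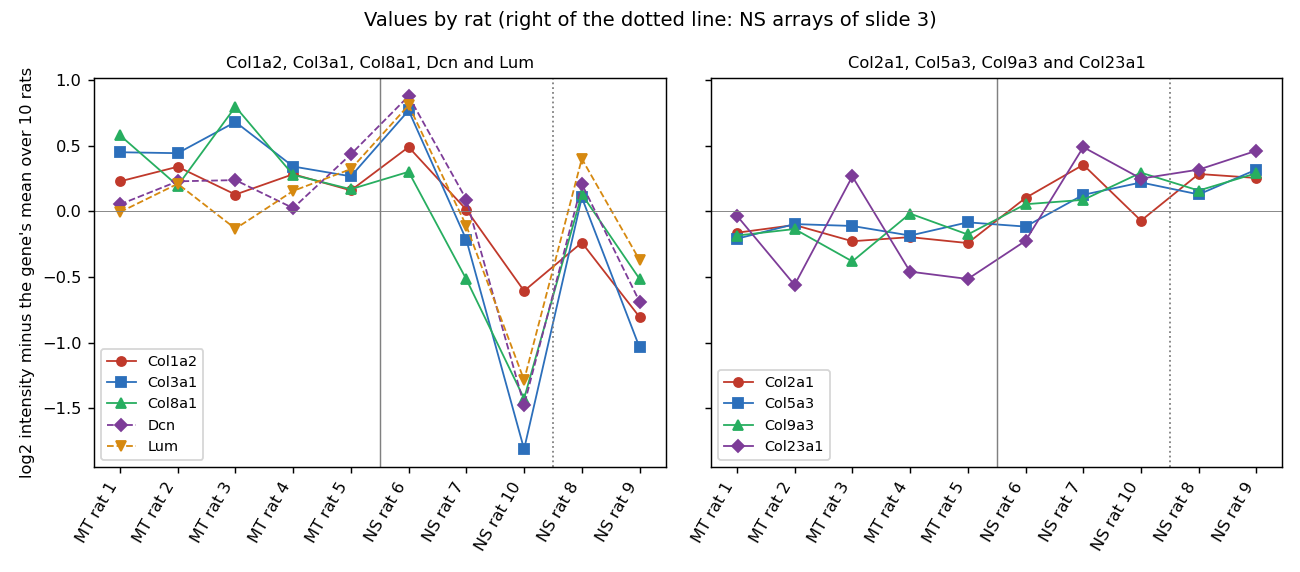
Log2 intensity minus the gene's mean over all 10 rats (y axis) for each rat (x axis), with the MT rats left of the grey line and the NS rats of slide 3 right of the dotted line, and lines that only join the values of 1 gene. In the left panel Col1a2, Col3a1, Col8a1, Dcn and Lum were high in NS rat 6 and low in NS rat 10, and in the right panel Col2a1, Col5a3 and Col9a3 sat below 0 in all MT rats.

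The chains best known from cartilage fibrils had lower or similar means in the MT group. Col2a1, the type II chain, was at 5.90, 5.96, 5.84, 5.87 and 5.82 in MT rats 1 to 5 and at 6.17, 6.42, 6.35, 6.32 and 6.00 in NS rats 6 to 10. All MT rats lay below all NS rats, with MT rat 2 and NS rat 10 the nearest to each other. The log2 fold change was −0.37 (SE 0.09, limma P = 0.00166, adjusted p = 0.113, exact permutation p = 0.00794, the smallest possible). It stayed negative under all 23 alternatives, but its size depended on the processing. It was −0.19 (SE 0.13) with scaling by the 75th percentile and −0.17 (SE 0.05) with normexp background correction. Holding the slide as a fixed block gave −0.23. Col9a3, a type IX chain that decorates type II fibrils, was at 10.20, 10.25, 10.01, 10.37 and 10.21 in the MT rats and at 10.44, 10.48, 10.55, 10.68 and 10.68 in NS rats 6 to 10. Here too the groups did not overlap. Its log2 fold change was −0.36 (SE 0.09, P = 0.00189, adjusted p = 0.114, exact permutation p = 0.00794).

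The other members of these fibrils differed less. Col9a2, another type IX chain, had a log2 fold change of −0.08 (SE 0.09, adjusted p = 0.683), and its groups overlapped. Col11a2, a type XI chain that joins type II in fibrils, had one of −0.01 (SE 0.09, adjusted p = 0.977), and its sign turned when arrays were scaled by their 75th percentile (0.057). Of 8 RNAs from bone and cartilage marker genes, the mean was higher in MT rats for 6 and lower for 2, with a median of 0.28, 3 at an unadjusted P below 0.05 (16.4% of all RNAs) and 0 past the study's criteria. Only 5 of these 8 were well above background on every array.

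The type V chains Col5a1 and Col5a3 regulate the diameter of type I fibrils. Col5a3 was at 9.42, 9.53, 9.51, 9.44 and 9.54 in the MT rats and at 9.51, 9.75, 9.76, 9.95 and 9.85 in NS rats 6 to 10. NS rat 6 lay among the MT rats and the 4 other NS rats above them. The log2 fold change was −0.27 (SE 0.08, P = 0.00905, adjusted p = 0.177, exact permutation p = 0.0317). Col5a1 was dim, at 4.23, 3.70, 4.39, 3.92 and 4.19 in the MT rats and at 4.41, 3.16, 5.17, 5.03 and 3.31 in NS rats 6 to 10. The NS rats of slide 3 were the highest of all rats, 1.47 above the NS rats of slide 2 on average. Its log2 fold change was −0.13 (SE 0.40, adjusted p = 0.892), but 0.46 without slide 3 and 0.20 with scaling by the 75th percentile, so that no direction is given.

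Of the type IV chains, Col4a1, which forms the network of most basement membranes, was at 11.03, 10.81, 11.13, 10.88 and 11.02 in the MT rats and at 10.82, 10.65, 10.91, 10.75 and 10.39 in NS rats 6 to 10. In 3 MT rats the level exceeded that of every NS rat. The log2 fold change was 0.27 (SE 0.11, P = 0.0291, adjusted p = 0.259, exact permutation p = 0.0397). Col4a4, a chain of specialised basement membranes such as that of the kidney filter, was at 4.34, 4.37, 4.20, 4.84 and 4.49 in the MT rats and at 4.86, 4.82, 5.59, 5.03 and 3.75 in NS rats 6 to 10. The NS rats spanned the MT range on both sides. Its log2 fold change was −0.36 (SE 0.29, adjusted p = 0.551), moving to −0.03 without slide 3 and to −0.63 without NS rat 10, where it met the study's criteria.

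Col8a1, a short-chain collagen of vessel walls, was the 1 member past the study's criteria. Its level was 8.87, 8.49, 9.09, 8.57 and 8.46 in the MT rats and 8.60, 7.78, 8.42, 7.78 and 6.87 in NS rats 6 to 10. Only 2 MT rats lay above every NS rat, and NS rat 10 was far below the rest. The log2 fold change was 0.81 (SE 0.30, P = 0.0218, adjusted p = 0.235, exact permutation p = 0.0397). It was 0.55 without NS rat 10 and 0.71 without MT rat 3, and the criteria were not met in either case. With the slide as a fixed block it was 0.74 (limma adjusted p = 1.00), and as a random block it gave 0.76 (limma adjusted p = 0.780), also short of the criteria.

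Col23a1 and Col13a1 encode membrane-spanning collagens. Col23a1 was at 8.41, 7.88, 8.70, 7.98 and 7.92 in the MT rats and at 8.21, 8.93, 8.76, 8.90 and 8.69 in NS rats 6 to 10. In 3 MT rats it lay below every NS rat, and NS rat 6 was the lowest NS rat. The log2 fold change was −0.52 (SE 0.19, P = 0.0220, adjusted p = 0.236, exact permutation p = 0.0476). Col23a1 fell short of the 1.5-fold criterion but met both criteria without MT rat 3 (−0.65) and without NS rat 6 (−0.64). Col13a1 was at 5.38, 4.90, 4.15, 4.96 and 5.49 in the MT rats and at 5.34, 5.13, 5.79, 5.65 and 4.80 in NS rats 6 to 10. The MT rats varied more than the NS rats, and the groups overlapped, with a log2 fold change of −0.36 (SE 0.27, adjusted p = 0.525).

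The differences of the remaining genes were within the spread between rats. Col7a1, the chain of the anchoring fibrils of epithelia, had a log2 fold change of 0.14 (SE 0.16, adjusted p = 0.690), with MT rats between 7.53 and 7.90 and NS rats between 7.03 and 7.86. Col14a1, which sits on the surface of interstitial fibrils, had a log2 fold change of −0.02 (SE 0.18, adjusted p = 0.962), and it turned to 0.13 with scaling by the 75th percentile.

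Slide 2 is the only slide with both groups, so the comparison within a slide rests on MT rat 2 and NS rats 6, 7 and 10. There, MT rat 2 differed from the mean of the 3 NS rats by 0.86 for Col3a1, 0.74 for Col8a1, 0.37 for Col1a2, 0.19 for Col4a1, −0.17 for Col5a3, −0.23 for Col2a1, −0.28 for Col9a3 and −0.73 for Col23a1. Each of these 8 differences had the same sign as over all 10 arrays. These rats are among the 10, so a shared sign is partly built in and is no independent check. Col5a1 (0.078) and Col14a1 (0.14) had the opposite sign on slide 2. Blocking by slide in limma returned these same differences, so it gives no further estimate of them. With the slide as a fixed block in limma, 0 of the 15 genes passed an unadjusted P of 0.05 (4.14% of all RNAs), and the standard error of Col3a1 was 0.83. Without the arrays of slide 3, 5 collagen genes passed it (18.3% of all RNAs).

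**Figure D4:**
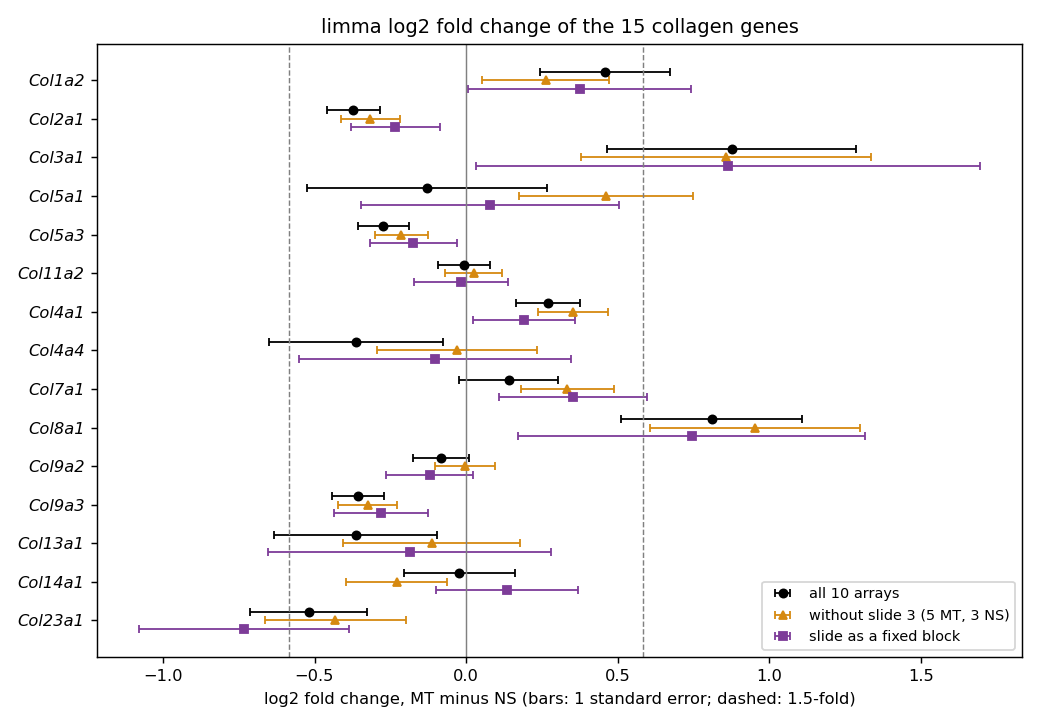
Log2 fold change of each collagen gene (x axis, MT minus NS, bars of 1 standard error, dashed lines at 1.5-fold) from limma over all 10 arrays, on slides 1 and 2 alone, and in a fit that holds the slide as a fixed block. Col3a1 and Col8a1 lie to the right and Col23a1 to the left under the 3 fits, while Col5a1 lies at −0.13, 0.46 and 0.078.

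The genes that modify and process collagen were divided in direction. Of 20 RNAs for collagen folding and modification in the endoplasmic reticulum, 10 had the higher mean in MT rats and 10 the lower, with a median log2 fold change of −0.01 and 0 past the study's criteria. Serpinh1, the collagen chaperone HSP47, had a log2 fold change of 0.24 (SE 0.17, adjusted p = 0.507). Colgalt1, which adds galactose to collagen, was the 1 RNA of this list at an unadjusted P below 0.05 (16.4% of all RNAs). Its log2 fold change was −0.35 (SE 0.10, adjusted p = 0.156), with all MT rats below all NS rats (3.3% of all RNAs). Of 7 RNAs for procollagen processing and cross-linking, 4 were higher and 3 lower with a median of 0.01. Tgm2, a cross-linking transglutaminase, was at 0.47 (SE 0.16, adjusted p = 0.202) with all MT rats above all NS rats (2.31% of all RNAs).

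Collagen receptors and binding partners were also divided in direction. Of 9 receptor RNAs, 4 were higher and 5 lower (median −0.03), with the integrin chain Itga1 at 0.45 (SE 0.15, adjusted p = 0.195) and the discoidin receptor Ddr2 at −0.42 (SE 0.17, adjusted p = 0.265). Of 8 collagen-binding proteoglycans, which share Dcn, Lum and Ogn with the fibroblast markers, 6 were higher and 2 lower (median 0.13). Of 7 basement membrane partners, 4 were higher and 3 lower (median 0.05). None of these 3 lists held an RNA past the study's criteria.

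Among 9 collagen-degrading proteases and their inhibitors, 5 were higher and 4 lower (median 0.0021). Mmp9, a gelatinase that the study lists among its own changed genes from these arrays, was the 1 RNA past the criteria (1.74% of all RNAs, higher in MT). Its mean log2 level was 7.47 over the MT rats against 5.97 over the NS rats (SE of the difference 0.52, limma adjusted p = 0.209). It was at 7.85, 7.99, 5.94, 8.64 and 6.94 in the MT rats and at 5.94, 6.15, 6.71, 6.29 and 4.76 in NS rats 6 to 10, so that MT rat 3 lay within the NS range. The difference was 2.38 with the slide as a fixed block, a value that rests on MT rat 2 against NS rats 6, 7 and 10. Mmp2, the other gelatinase, was lower in all MT rats than in all NS rats (3.3% of all RNAs). Its log2 fold change was −0.51 (SE 0.11, limma adjusted p = 0.0930).

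Of 11 other fibrous matrix RNAs, 9 were higher and 2 lower (median 0.13), and fibronectin (Fn1) met the criteria (1.74% of all RNAs, higher in MT). Fn1 was at 13.20, 12.55, 13.67, 12.62 and 12.58 in the MT rats and at 12.15, 12.42, 12.52, 12.52 and 12.07 in NS rats 6 to 10. The groups did not overlap (2.31% of all RNAs, with MT higher), although MT rat 2 was close to NS rats 8 and 9. The log2 fold change was 0.59 (SE 0.22, limma adjusted p = 0.245). With the slide as a fixed block it was 0.33, and Fn1 no longer met the criteria. Elastin (Eln) was at 0.58 (SE 0.22, adjusted p = 0.251), just under 1.5-fold. Efemp1, a fibulin, had the smallest P of this list and went the other way, with all MT rats below all NS rats (3.3% of all RNAs). Its log2 fold change was −0.38 (SE 0.08, limma adjusted p = 0.0973). Of 10 RNAs of TGF-beta signalling, a main inducer of collagen genes, 5 were higher and 5 lower (median 0.0017), with 0 past the criteria and 2 at an unadjusted P below 0.05, near the 16.4% of all RNAs. No RNA of these 8 pathway lists passed an adjusted p of 0.05.

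Marker genes of other cell types were counted in the same way. The neuron, astrocyte and oligodendrocyte markers tested were all well above background on every array, with medians of 0.19 (5 RNAs), −0.04 (8 RNAs) and 0.08 (11 RNAs). Among 8 mural cell markers 6 were higher and 2 lower (median 0.10). Cnn1, a smooth muscle gene on the study's own list from these arrays, passed the criteria (1.74% of all RNAs, higher in MT). Its log2 fold change was 1.28 (SE 0.44, limma adjusted p = 0.207). With the slide as a fixed block it was 0.90, and Cnn1 no longer met the criteria. Of 7 endothelial markers 2 were higher and 5 lower (median −0.07). Of 6 RNAs listed as Schwann cell markers 1 was higher and 5 lower (median −0.09). Mpzl2, an adhesion gene also on the study's list, was the 1 past an adjusted p of 0.05 (0.197% of all RNAs). It was lower (−0.91, SE 0.11, adjusted p = 0.0252, and −1.13 with adjusted p = 0.276 under the fixed block, all from limma). The value of this 1 gene is not read as a change in Schwann cells. Of 7 skeletal muscle RNAs 5 were higher and 2 lower (median 0.04), with 3 well above background on every array. The muscle creatine kinase Ckm was at 4.99 and 5.13 in the NS rats of slide 3 and between 8.94 and 9.43 in the other 8 rats. The part of these cell types in the collagen values was not tested.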

How the data were processed

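Total RNA was labelled with random primers and hybridized to 1 one-colour array per rat (5 MT, 5 NS). The authors extracted the spots with Agilent Feature Extraction 11.0.1.1 and deposited background-subtracted intensities with flags for outlier and dim spots, and 1 table of quantile-normalized log2 values. Here the intensities were floored at 1, converted to log2 and brought to one distribution by quantile normalization (limma 3.58.1, R 4.3.3). Outlier spots were left out and the spots and probes of an RNA were averaged. An RNA was kept when over 50% of its spots passed the well-above-background flag on 5 or more arrays, which left 20261 RNAs. Against the deposited table, Pearson's r per array was 0.993 to 0.999 over probes (probes are no replicates).

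The accessions of mRNA probes were named through RefSeq GRCr8, which matched 14274 of 15323. The array was annotated on an older build, so no probe position is given. MT was compared with NS by limma over all RNAs, with Benjamini-Hochberg adjustment, and single genes by a two-sided exact permutation test over 252 assignments. The collagen genes and all lists were chosen with earlier results of these data known. Values by rat are given for the 3 genes of each class with the largest difference, Col1a2, Col3a1, Col5a1 and Col4a1, and for Col5a3 and Col9a3, chosen after their values were seen. From the lists, the members past the criteria are named, and others named were likewise chosen after their values were seen. The lists were collagen folding and modification, procollagen processing, collagen receptors, collagen-binding proteoglycans, basement membrane partners, proteases and inhibitors, other fibrous matrix, TGF-beta signalling, and markers of meningeal fibroblasts, mural, endothelial and Schwann cells, skeletal muscle, bone and cartilage, neurons, astrocytes and oligodendrocytes. Alternatives changed the scaling, background correction (normexp on median signals), filter, test, slide and rats. Mean signals had been planned for normexp, but the scanner output lacked them. Simulated arrays had the group sizes of this comparison, but the same spread in both groups and no slide difference. Their counts therefore do not carry over to the real arrays. On the simulated arrays, 138 of 200 RNAs changed by a log2 fold of 1 passed a limma adjusted p of 0.05 among 20196 RNAs. So did 7 unchanged RNAs. The study's criteria found 184 of the 200, but also called 226 unchanged RNAs. Col8a1 passed those criteria without passing the adjusted p.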

Additional observations from a re-analysis of the deposited data

How the results depend on the processing

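No paired analysis was possible because the replicate numbers of the MT rats (1 to 5) and the NS rats (6 to 10) share none. Over 23 alternatives, the 15 genes gave 342 values, of which 309 kept their direction and their side of the study's criteria and 20 turned the sign of Col5a1, Col11a2 or Col14a1. For every gene but Col8a1, the same side meant short of the criteria. Some alternatives, such as another test or keeping outlier spots, left the log2 fold change of every gene as it was, so this count does not measure robustness. The number of genes past an adjusted p of 0.05 was 0 under every alternative run, and the lowest adjusted p was 0.0522 for Col2a1. The number past the study's criteria and higher in the MT group was 2 with normexp correction and with a variance trend, where Col3a1 joined, and 0 with the slide as a fixed or as a random block. The number lower was 1 with the random block (Col23a1). Leaving out 1 rat gave 0 to 3 genes higher (3 without NS rat 6, 2 without NS rat 8, 0 without MT rat 3 or NS rat 10), 0 to 1 lower, and 0 to 0 past an adjusted p of 0.05. It moved the medians from −0.16 to 0.05 (fibrillar), −0.22 to 0.08 (type IV) and −0.15 to −0.03 (other). The fibrillar median was 0.13 with scaling by the 75th percentile, 0.11 with array weights and 0.14 without slide 3, and the type IV median was 0.27 with the filter on all 10 arrays, which left Col4a1 alone. The 75th percentile scaling moved the median of all RNAs to 0.07.

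The sign turned for Col5a1 with scaling by the 75th percentile (0.20), array weights (0.17), the fixed block (0.078) and without slide 3 (0.46), and leaving out 1 rat gave −0.39 to 0.11. For Col11a2 it turned with scaling by the 75th percentile (0.057), array weights (0.050) and without slide 3 (0.025), and leaving out 1 rat gave −0.038 to 0.032. For Col14a1 it turned with scaling by the 75th percentile (0.13), the fixed block (0.14) and the random block (0.087), and leaving out 1 rat gave −0.15 to 0.079. The causes were not tested. The deposited table gave no value for Col9a3, and the filter on all 10 arrays left out Col5a1 and Col4a4. Signal over background limits Col5a1 and Col4a4, which were not well above background on every NS array, and slide and group cannot be told apart outside slide 2.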
